A study of Mus musculus with 2 samples.

Results

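Ezrin, radixin, moesin and merlin, encoded by Ezr (formerly Vil2), Rdx, Msn and Nf2, were examined in a pair of mouse osteosarcoma cell lines that differ in metastatic ability. Every probe set of the array whose only annotated gene symbol was one of these 4 was taken, which gave 11 probe sets out of 34945 with 1 symbol, and 4 genes out of 18193. The compared lines were LM8, a subline described in the labels as highly metastatic, and Dunn, its parental line, described as non-metastatic. Neither line received a treatment, both were grown in the same serum-supplemented medium, and 10 µg of total RNA was labelled for each Affymetrix Mouse430_2 array. LM8 was obtained from Dunn by selection, so it stands for a single derived line, and what it owes to selection or to drift in culture cannot be told apart.

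Ezrin, radixin and moesin, together called the ERM proteins, tie membrane proteins to the actin cortex. Their amino-terminal FERM domain binds receptors and scaffolds, their tail binds actin filaments, and in the resting protein the tail covers the FERM domain until membrane phosphoinositides and phosphorylation of a conserved tail residue open it. Merlin shares the FERM domain but lacks the usual ERM actin-binding tail, and acts as a growth suppressor that feeds the Hippo kinases. Ezrin is best known from epithelia and from metastasis of osteosarcoma, moesin from leukocytes and endothelium, and radixin from liver. The arrays measured RNA only, so neither protein level nor phosphorylation was measured.

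With 1 array for each line, the differences below could not be tested or set against replicate error, and precision is limited by the number of arrays. Values are linear MAS5 signals, in arbitrary units, on a common 2% trimmed mean. Each array had a floor at its median, which was 18.96 for LM8 and 21.06 for Dunn, and 25144 of 45037 non-control probe sets lay above it on at least 1 array. Differences are log2 ratios of LM8 over Dunn, and a probe set was counted as apart at 2-fold or more. The ratio of 3' to 5' signal, a sign of RNA quality, was 0.789 in LM8 and 0.708 in Dunn for Gapdh, and 1.16 in LM8 and 1.26 in Dunn for Actb.

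Markers of osteoblasts were bright in both lines, with 7 of 9 above the floor in LM8 and 7 of 9 in Dunn, and summed signals of 19227 in LM8 and 19769 in Dunn. Among them Sp7, a transcription factor of osteoblasts, had a signal of 743 in LM8 and 687 in Dunn. The parathyroid hormone receptor gene Pth1r had 492 in LM8 and 1115 in Dunn, and the bone sialoprotein gene Ibsp 96.6 in LM8 and 239 in Dunn. Others went the other way, with Alpl at 1739 in LM8 and 1266 in Dunn and Col1a1 at 3537 in LM8 and 2399 in Dunn. Epithelial markers, which matter here because epithelia are rich in ezrin, were above the floor for 1 of 9 genes in LM8 and 3 of 9 in Dunn, with summed signals of 104 in LM8 and 147 in Dunn. The epithelial cadherin gene Cdh1 lay under the floor in both lines, at 2.43 in LM8 and 12.8 in Dunn. Epcam lay above it in both, at 33.8 in LM8 and 37.3 in Dunn, and Krt8 and Krt5 did in Dunn only. Of 11 leukocyte markers, 3 were above the floor in LM8 and 8 in Dunn, with sums of 522 in LM8 and 971 in Dunn. Fcer1g alone made up 387 of the sum in LM8 and 716 in Dunn. The pan-leukocyte gene Ptprc was under the floor in both, at 8.62 in LM8 and 5.77 in Dunn. Of 7 endothelial markers, 2 were above the floor in each line, with sums of 115 in LM8 and 224 in Dunn. The 2 were Vwf, at 67.3 in LM8 and 152 in Dunn, and Kdr, which was level between the lines. Pecam1 and Cdh5 were under the floor in both. The part of these markers in the results below was not tested.

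The 4 genes lie apart in the genome (GRCm38.p6). Ezr lies on chromosome 17 from 6738131 to 6782780, Rdx on chromosome 9 from 52047150 to 52088738, Msn on the X chromosome from 96096045 to 96168553, and Nf2 on chromosome 11 from 4757639 to 4849544. The RefSeq gene table for that assembly lists 1 curated transcript for Ezr, 1 for Msn, 3 for Rdx and 8 for Nf2. Start-site windows of RefSeq, from 250 bases before to 50 after an annotated start, are shown for the 4 genes because the arrays report a level for each but no sequence. All 4 genes matched, with 6 windows, and the 4 windows that hold a searched motif are printed 5' to 3' on the gene's strand. Capitals mark TGANTCA (the AP-1 site), CACGTG (an E-box) and GGGCGG (a GC box), each searched on both strands, and GGAATG, the core TEAD letters, was searched too.
Ezr, chr17:6782731-6783030, minus strand: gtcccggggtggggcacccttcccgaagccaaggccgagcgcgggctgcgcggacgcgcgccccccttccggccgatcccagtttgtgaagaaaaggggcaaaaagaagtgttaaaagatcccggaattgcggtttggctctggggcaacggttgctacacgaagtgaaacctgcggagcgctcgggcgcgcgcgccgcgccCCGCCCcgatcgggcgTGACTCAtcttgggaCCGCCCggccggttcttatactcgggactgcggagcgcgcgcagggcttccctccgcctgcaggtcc
Rdx, chr9:52047691-52047990, plus strand: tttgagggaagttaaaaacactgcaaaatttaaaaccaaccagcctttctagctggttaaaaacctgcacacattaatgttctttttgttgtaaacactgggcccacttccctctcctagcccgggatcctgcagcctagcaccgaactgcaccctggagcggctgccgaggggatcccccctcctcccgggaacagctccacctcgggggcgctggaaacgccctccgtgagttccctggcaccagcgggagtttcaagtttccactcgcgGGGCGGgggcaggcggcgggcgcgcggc
Msn, chrX:96095795-96096094, plus strand: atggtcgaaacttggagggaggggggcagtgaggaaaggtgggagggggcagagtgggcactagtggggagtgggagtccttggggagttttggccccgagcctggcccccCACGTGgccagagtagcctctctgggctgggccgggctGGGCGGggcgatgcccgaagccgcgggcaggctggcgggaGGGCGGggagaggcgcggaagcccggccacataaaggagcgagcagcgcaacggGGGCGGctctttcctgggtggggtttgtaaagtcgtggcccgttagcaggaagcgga
Nf2, chr11:4849495-4849794, minus strand: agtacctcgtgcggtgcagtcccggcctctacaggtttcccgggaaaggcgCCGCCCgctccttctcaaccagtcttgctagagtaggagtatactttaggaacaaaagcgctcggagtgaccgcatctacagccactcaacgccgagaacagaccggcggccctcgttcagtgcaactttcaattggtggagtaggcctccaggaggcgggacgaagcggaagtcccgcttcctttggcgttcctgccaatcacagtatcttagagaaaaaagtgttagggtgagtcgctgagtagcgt

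The Ezr window held 1 AP-1 match, beginning at position -32 from the start at 0, and 2 GC boxes. The Msn window held 1 E-box match at position -139 and 3 GC boxes, and the printed Rdx and Nf2 windows held 1 GC box each. No match overlapped another, and the further Rdx window, at the outermost start of the gene, and the further Nf2 window held none of these letters. No window held GGAATG. Over 32851 windows of the same length, TGANTCA was found in 7.81%, CACGTG in 7.15%, GGGCGG in 35.7% and GGAATG in 14.7%. A match is a description of letters and not a binding site. Guanine and cytosine made up 69.0% of the Msn window, 68.0% of the Ezr window, 59.3% of the printed Rdx window and 56.3% of the printed Nf2 window.

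The comparison of LM8 with Dunn asks whether RNA of these membrane linkers differs with metastatic ability. Radixin, moesin and merlin RNA differed little, with all 9 of their probe sets between -0.29 and 0.32 in log2 ratio, which is at most 1.24-fold. Of all measured probe sets on the array, 40.2% were likewise within 1.24-fold. Ezrin RNA has no settled direction, because 1 of its 2 probe sets was at least 2-fold lower in LM8 and the other at least 2-fold higher. All 11 probe sets were above the floor on both arrays, so no ratio among them is a bound. Here 1 of 11 probe sets was 2-fold higher and 1 of 11 was 2-fold lower, against 5.91% higher, 7.79% lower and 13.7% apart either way among the 25144 measured probe sets of the array.

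**Figure D1:**
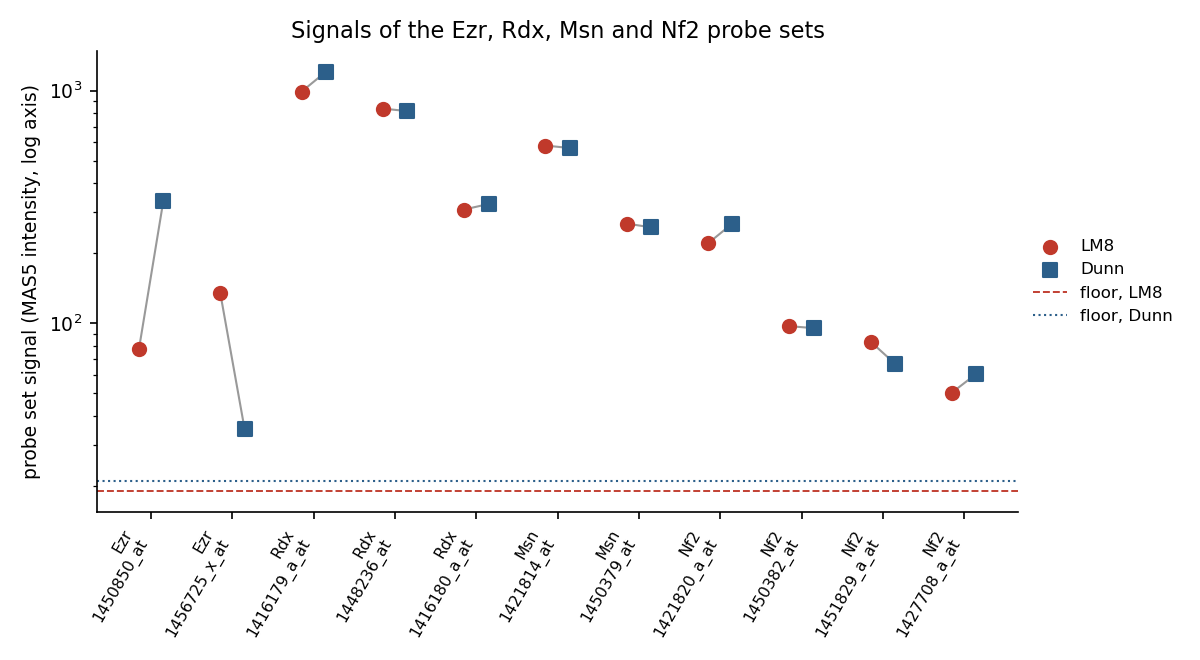
Signal of each probe set (log axis, arbitrary MAS5 units) in LM8 (circles) and Dunn (squares), with 1 array per line and the floor of each array as a horizontal line. The pair of Ezr probe sets slopes in opposite directions, at 77.4 in LM8 against 335 in Dunn for 1450850_at and 135.6 in LM8 against 35.2 in Dunn for 1456725_x_at, while the 9 others are nearly level.

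Ezrin links receptors such as CD44 to cortical actin. Its probe set 1450850_at, taken from the expressed tag BM119387, had a signal of 77.4 in LM8 and 335 in Dunn, a log2 ratio of -2.11 or 4.33-fold lower in LM8. Its other probe set, 1456725_x_at, taken from the expressed tag BB114808, had a signal of 135.6 in LM8 and 35.2 in Dunn, a log2 ratio of 1.95 or 3.85-fold higher. By 1450850_at Dunn is the line high in ezrin RNA, and by 1456725_x_at it is LM8.

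Neither probe set was dim in the line where it was high. For 1450850_at the signal stood 4.08 times the floor in LM8 and 15.9 times in Dunn, and for 1456725_x_at 7.15 times in LM8 and 1.67 times in Dunn. The Dunn signal of 1456725_x_at is therefore the 1 ezrin value close to the floor. Of all measured probe sets, 98.5% had a smaller log2 ratio in size than 1450850_at and 97.9% a smaller one than 1456725_x_at. In Affymetrix naming the suffix _x_at marks a probe set in which some probes may also match other transcripts, while plain _at marks one meant for a single transcript. The probe sequences and their places on the transcript are not used here, so which transcripts each probe set reads was not tested. The mean of both log2 ratios was -0.08, with an SD of 2.87 between the probe sets, and that mean describes neither of them.

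The disagreement was set against that of other genes. Over 5521 genes with 2 or more measured probe sets, the gap from the lowest to the highest log2 ratio within a gene, its range, was 0.52 at the median and 1.61 at the 95th percentile. Ezr had a range of 4.06, and 1 other gene, Ptn, had a larger one, with 3 probe sets between -0.89 and 4.22. Only 10 of the 5521 genes, or 0.181%, held a probe set at least 2-fold higher and another at least 2-fold lower. Ezr was the 1 gene among these 10 with every measured probe set above the floor on both arrays, a condition met by 3815 of the 5521. The other 9, of which Sema6c had the widest range at 3.09, each had at least 1 measured probe set with an array at its floor. This condition was chosen with the Ezr values known, so that it singles out Ezr is a description only. The Dunn signal of 1456725_x_at met it at 1.67 times the floor.

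**Figure D2:**
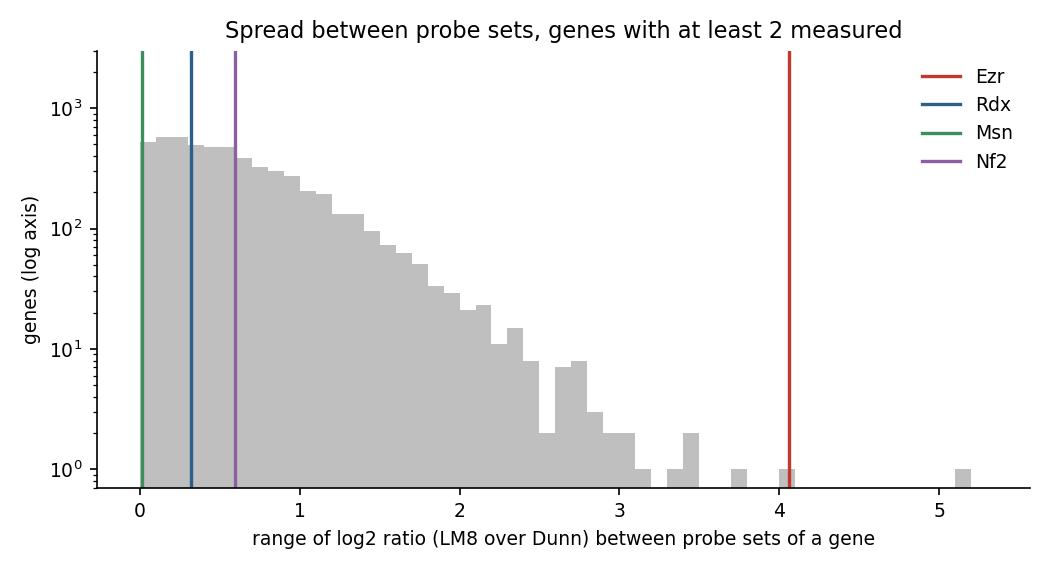
Number of genes (log axis) by the range of log2 ratios over their measured probe sets, for 5521 genes with at least 2, with vertical lines at Msn (0.02), Rdx (0.32), Nf2 (0.60) and Ezr (4.06). Ezr stands far to the right of the bulk, whose 95th percentile is 1.61, with 1 gene beyond it.

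Radixin, the ERM protein of liver canaliculi and hair cell bundles, was read by 3 probe sets that were all designed on the same RefSeq transcript, NM_009041. The brightest, 1416179_a_at, had a signal of 990 in LM8 and 1207 in Dunn, a log2 ratio of -0.29. The next, 1448236_at, had 838 in LM8 and 817 in Dunn, a log2 ratio of 0.04, and 1416180_a_at had 309 in LM8 and 326 in Dunn, a log2 ratio of -0.08. The lines were thus within 1.22-fold of each other on each of the 3, and the probe sets did not share a sign. Their range of 0.32 was larger than that of 32.3% of genes with several measured probe sets, and the median range among the 1471 genes with exactly 3 was 0.61.

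Moesin, the ERM protein best known from blood cells and vessels, was read by 2 probe sets designed on NM_010833. Probe set 1421814_at had a signal of 581 in LM8 and 567 in Dunn, and 1450379_at had 269 in LM8 and 259 in Dunn. Their log2 ratios of 0.04 and 0.05 lay 0.02 apart, and 1.52% of the genes with several measured probe sets had a smaller range. The median range among the 3062 genes with exactly 2 measured probe sets, as Msn and Ezr have, was 0.37. Moesin RNA was therefore level between the lines on each of its probe sets, at 1.04-fold or less.

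Merlin, the growth suppressor lost in neurofibromatosis, was read by 4 probe sets, of which 2 share the mRNA record L28176. Those 2 were 1421820_a_at, with a signal of 221 in LM8 and 269 in Dunn, and 1450382_at, with 97.3 in LM8 and 95.5 in Dunn. On the other records, 1451829_a_at had 83.5 in LM8 and 67.1 in Dunn, and 1427708_a_at had 50.4 in LM8 and 60.8 in Dunn. In that order the log2 ratios were -0.28, 0.03, 0.32 and -0.27, so 2 probe sets were nominally higher in LM8 and 2 lower. The suffix _a_at marks probe sets meant to read several transcripts of a gene, and Nf2 has the most curated transcripts of the 4 genes. The range of 0.60 lay below the median of 0.78 for the 571 genes with exactly 4 measured probe sets.

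Small signs among these 9 probe sets depended on how the arrays were put on a common scale. As reported, 5 were nominally higher in LM8 and 4 lower. With the arrays centred on their medians 6 were higher and 3 lower, with quantile normalization 4 and 5, with lowess centring 3 and 6, and with bacterial hybridisation controls as the scale 6 and 3. In that order these scalings put the median of all measured genes at 0.07, -0.03, -0.03 and 0.16, against -0.08 as reported. Under the 7 alternatives tried, no probe set of Rdx, Msn or Nf2 came 2-fold apart, and the largest log2 ratio was 0.56, for the Nf2 probe set 1451829_a_at.

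**Figure D3:**
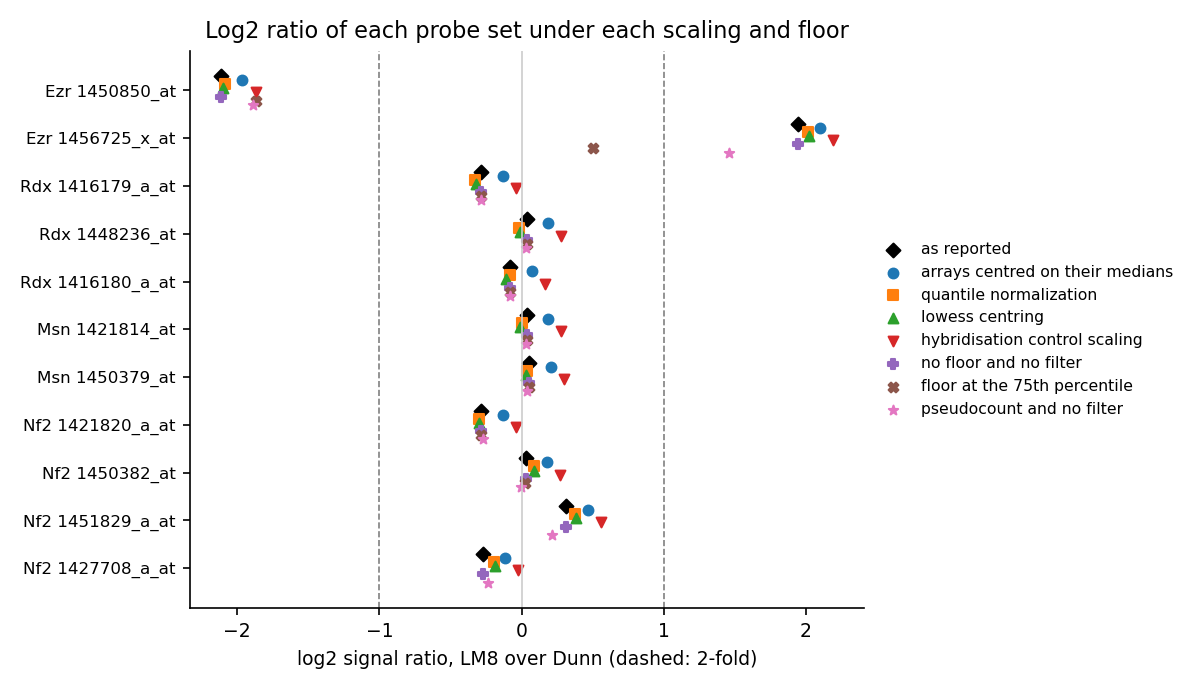
Log2 ratio of LM8 over Dunn (horizontal axis) of each of the 11 probe sets, with 1 symbol per scaling or floor and dashed lines at 2-fold. The Ezr probe sets stay on opposite sides of 0 throughout, while the 9 others stay between -0.33 and 0.56. With the floor at the 75th percentile both Ezr ratios are bounds, and that of 1456725_x_at is at least 0.50.

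By distance in log2 signal over the 2 arrays, the genes nearest to the brightest probe set of Ezr were Tcp11l2 (75.1 in LM8 and 292 in Dunn) and H2ac19 (66.9 in LM8 and 347 in Dunn). Those nearest to Rdx were Tomm22 and Ube2d2a, to Msn Cnep1r1 and Tsn, and to Nf2 Otud5 and Stat6, at distances of 0.01 to 0.04. With 2 arrays such likeness means only a similar pair of signals.

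Genes that act around these proteins were counted on the brightest measured probe set of each. Over 5 lists with 83 measured genes of 105, 3 genes passed the 2-fold rule upwards in LM8 and 14 downwards, with a median log2 ratio of -0.12. The same shares over all 11830 measured genes were 6.51% upwards, 8.84% downwards and 15.4% either way, with a median of -0.08. With quantile normalization 4 list genes were higher and 12 lower, and with lowess centring 4 and 13. With the arrays centred on their medians 6 were higher and 9 lower, against 1025 higher and 775 lower over all genes. With the hybridisation controls as the scale 7 were higher and 5 lower, against 1237 higher and 639 lower over all genes, so the list counts moved along with those of the whole array. Lats2, Amotl2 and Frmd6 stand in 2 lists each.

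Kinases, phosphatases and lipid kinases that open or close ERM proteins held 2 genes of 13 measured that were 2-fold lower and none that was higher, with a median of 0.04, and their share apart was that of all measured genes. Stk10, a kinase that phosphorylates the ERM tail in lymphocytes, had a signal of 9.39 in LM8 and 47.6 in Dunn, at least 2.51-fold lower. Pip5k1b, a phosphoinositide kinase, had 5.77 in LM8 and 44.0 in Dunn, at least 2.32-fold lower. Both had their LM8 signal under the floor and a single measured probe set. Slk, the close relative of Stk10, had 305 in LM8 and 232 in Dunn, with log2 ratios of 0.39 to 1.09 over 4 probe sets. Rock1 had 453 in LM8 and 244 in Dunn, with log2 ratios of 0.25 to 0.90 over 4 probe sets. Prkca had a log2 ratio of 0.93 on the brightest of 3 probe sets and -1.69 on another. The GTPase gene Rhoa had 1575 in LM8 and 1755 in Dunn.

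Membrane partners and scaffolds held no gene 2-fold higher in LM8, 3 lower and 8 between among 11 measured, with a median of -0.23. Among all measured genes 6.51% were higher and 8.84% lower. The syndecan gene Sdc2 had a signal of 949 in LM8 and 2043 in Dunn. Its log2 ratio was -1.11 on the brightest of 4 probe sets and -0.57 on another. The scaffold gene Slc9a3r2 had 20.1 in LM8, close to the floor, and 46.6 in Dunn, a log2 ratio of -1.21 on the brightest of 6 probe sets and as little as -0.05 on another. Akap12, which anchors protein kinase A, had 10.8 in LM8 and 43.5 in Dunn, at least 2.30-fold lower. The hyaluronan receptor gene Cd44, the ERM partner best known from tumours, had 1108 in LM8 and 859 in Dunn, a log2 ratio of 0.37 on the brightest of 3 probe sets and -0.07 on another. Slc9a3r1, which encodes the scaffold that binds the ezrin FERM domain, was dim, with 38.0 in LM8 and 52.2 in Dunn, and its 3 probe sets ranged from -0.50 to 0.22.

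On the merlin side, none of 21 measured Hippo pathway genes was 2-fold higher in LM8 on its brightest probe set, and 4 were lower. The shares over all measured genes were 6.51% higher and 8.84% lower. The 17 other Hippo genes stood in the middle, at -0.79 to 0.74 in log2 ratio, and the median of all 21 was -0.07. Some of the 17 passed 2-fold upwards on a dimmer probe set. Sav1 reached 1.18 and Wwc2 1.21, and Taok1 ran from -0.72 to 1.22. Frmd6, a FERM gene placed upstream of the Hippo kinases, had a signal of 153 in LM8 and 495 in Dunn and was 3.25-fold lower on its 1 measured probe set. The angiomotin gene Amot, whose product binds merlin and YAP, had 365 in LM8 and 822 in Dunn, a log2 ratio of -1.17 on the brightest of 3 probe sets and -0.16 on another. The kinase gene Lats2 had 57.9 in LM8 and 125 in Dunn, a log2 ratio of -1.11, with other probe sets up to -0.05. Tead2, a DNA-binding partner of YAP, had 37.8 in LM8 and 76.8 in Dunn, a log2 ratio of -1.02. The kinase gene Lats1 had 294 in LM8 and 349 in Dunn, and the co-activator gene Yap1 had 262 in LM8 and 341 in Dunn. Wwtr1, which encodes TAZ, had 162 in LM8 and 127 in Dunn, a log2 ratio of 0.35 on the brightest of 3 probe sets that reached 1.52. Stk3 and Pak1 were not analysed here.

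Known target genes of YAP and TAZ went both ways. The 18 measured genes split into 2 that were 2-fold higher in LM8, 3 that were lower and 13 in the middle, and their median was -0.20. For all measured genes the shares were 6.51% higher and 8.84% lower. Ccn2, a matricellular gene, had a signal of 222 in LM8 and 1069 in Dunn, a log2 ratio of -2.27 on its 1 measured probe set. Nt5e, an ecto-nucleotidase gene, had 236 in LM8 and 1012 in Dunn, a log2 ratio of -2.10, with -1.32 on its other probe set. The third lower gene was Lats2. Among the genes in the middle, Asap1 had -0.85 on its brightest probe set and ran from -1.79 to -0.79 over 3. Ccn1, another matricellular target, had 639 in LM8 and 614 in Dunn on the brightest of 4 probe sets, whose log2 ratios ran from 0.06 to 0.63. The higher genes were Ankrd1, with 75.3 in LM8 and 29.9 in Dunn, and Gadd45b, with 76.9 in LM8 and 36.9 in Dunn, and a dimmer probe set of each was level, at 0.15 and -0.08 in log2 ratio.

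Among other genes with a FERM domain, 1 of 23 measured was 2-fold higher in LM8 and 4 were lower, and the median was -0.20. Of all measured genes, 6.51% were higher and 8.84% lower. Besides Frmd6, the lower genes were Epb41l5 (13.6 in LM8 and 58.4 in Dunn, at least 3.08-fold on the brightest of 3 probe sets, with -0.20 in log2 ratio on another), the phosphatase gene Ptpn3 (9.84 in LM8 and 39.6 in Dunn, at least 2.09-fold) and the talin gene Tln2. Tln2 had a signal of 150.2 in LM8 and 313 in Dunn, with log2 ratios of -1.11 to -0.78 over 3 probe sets. Tln1, the talin gene that links integrins to actin in most cells, had 538 in LM8 and 479.7 in Dunn on the brightest of 3 probe sets, whose log2 ratios ran from -0.04 to 1.10. The higher gene was Farp1, an exchange factor gene, with 263 in LM8 and 114 in Dunn, while its dimmer probe set had a log2 ratio of -0.31.

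**Figure D4:**
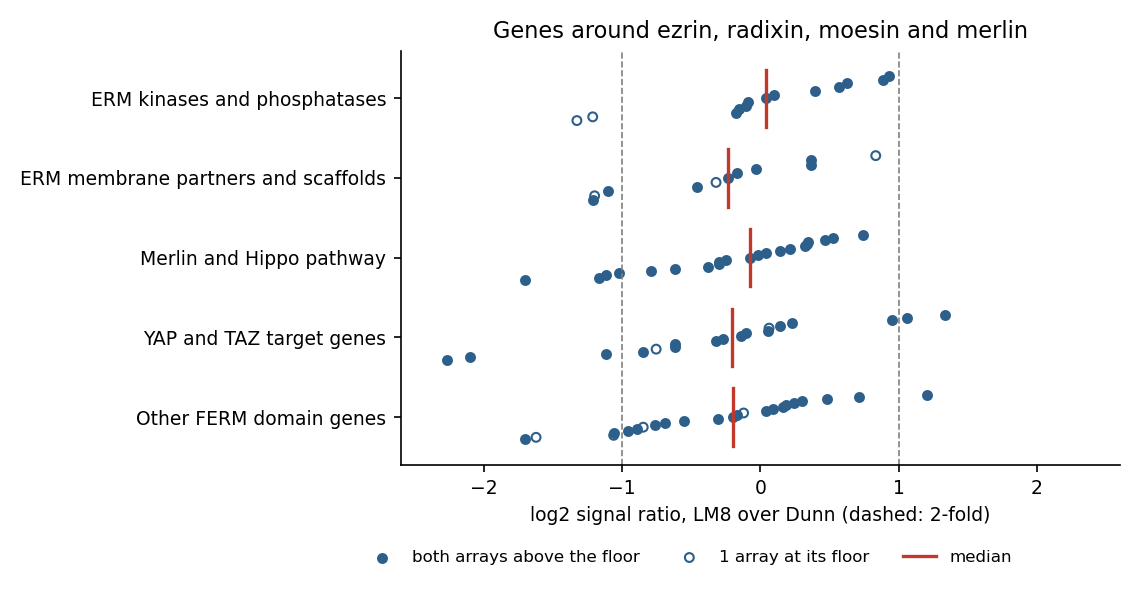
Log2 ratio of LM8 over Dunn (horizontal axis) of every measured gene of 5 lists, on its brightest probe set, with open circles where 1 array was at its floor, a vertical bar at each list's median and dashed lines at 2-fold. The medians lie between -0.23 and 0.04, and 3 genes pass the right-hand line.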

How the data were processed

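RNA of 2 mouse osteosarcoma lines was measured on 1 Affymetrix array each. Per the submitters' processing notes the authors used MAS5, of which no version or setting is given in the sources used here, and they deposited linear intensities. The 2% trimmed mean over 45101 probe sets was 100 on each array, and the values were neither logged nor floored. The 64 control probe sets were set aside, and rescaling the others to equal 2% trimmed means left the signals almost unchanged. Symbols came from the platform annotation, updated through gene identifiers (99.4% matched to GRCm38.p6).

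Signals under an array's median were set to it, and the size of a ratio against a floored array is a lower bound unless the unequal floors turn its sign. They did so for Epb41l3, with 19.4 in LM8 and 16.8 in Dunn but a log2 ratio of -0.12. That value is also the median over the 83 measured list genes. A listed gene took its brightest measured probe set. No test was possible, so a 2-fold rule was used. The members, the 5 lists and the rules were chosen with earlier results of these data known. Named were every member probe set, list members at least 2-fold apart (at most 5 in each direction), 15 further genes fixed by name (not all are reported here), and the 2 nearest genes by signal. The alternatives were 4 scalings, 3 floors, a 3-fold rule and 2 gene summaries. The steps were tested on simulated data with known folds put only into probe sets far above the floor. Recovery of folds in dim probe sets was not tested. The software was Python 3.11.15 with matplotlib 3.10.9, statsmodels 0.14.6, scipy 1.17.1, pandas 2.3.3 and numpy 2.4.6.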

Additional observations from a re-analysis of the deposited data

How the results depend on the processing

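No paired analysis was possible because each line had 1 array and the labels carry no replicate numbers; for the same reason no replicate could be left out. A value with no test was taken as moved when it shifted by more than 0.30 in log2, the median within-gene SD over probe sets, and a count when it changed by more than 1.5 times. Of 185 recomputed values, 36 moved, and 0 log2 ratios past 2-fold changed sign. Ratios of Rdx, Msn and Nf2 near 0 did change sign with the scaling, as given above. The Ezr probe set 1450850_at stayed between -2.11 and -1.87. The other, 1456725_x_at, became 0.50 with the floor at the 75th percentile, which lies above its Dunn signal, and 1.46 with a pseudocount and no filter. At the raised floor 0 member probe sets were 2-fold higher. The range between the Ezr probe sets was at least 2.37 at the raised floor and 3.34 with the pseudocount. None of 61 recomputed ratios of Rdx, Msn and Nf2 moved or came 2-fold apart. Part of this was set in advance. These probe sets lie above both floors, so removing the floor left them unchanged. Median and hybridisation control scaling each shift all ratios by the same amount, which was under 0.30. At the raised floor 2 Nf2 probe sets were not measured.

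Counts of list genes at least 2-fold apart in either direction were small and moved often. Those of lists count genes, and those over the array count probe sets. Centring on medians gave 4 for ERM kinases and phosphatases, 2 for the Hippo pathway and 3 for other FERM genes. Over the whole array that setting put 2102 probe sets higher and 1394 lower. Scaling on hybridisation controls gave 1 for membrane partners, 1 for the Hippo pathway and 3 for other FERM genes, with 2569 probe sets higher and 1122 lower over the whole array. With no floor and no filter, membrane partners had 7, other FERM genes 8, and the whole array 7333 higher and 9179 lower. These counts are out of larger totals, because all 45037 non-control probe sets, 16 partners and 28 other FERM genes then counted as measured. The floor at the 75th percentile gave 0 for ERM kinases, 1 for partners, 2 for Hippo, 2 for YAP targets and 3 for other FERM genes, with 589 higher and 639 lower over the array. The pseudocount, also without a filter, gave 2 for Hippo and 2 for YAP targets, with 1058 higher and 1847 lower over the array. The 3-fold rule gave 0 for ERM kinases, 0 for partners, 1 for Hippo, 2 for YAP targets and 2 for other FERM genes, with 468 higher and 571 lower over the array. Averaging probe sets gave 1 for partners, 3 for YAP targets and 2 for other FERM genes. No count over all genes is given for averaging. The cause of these shifts was not tested beyond what each setting itself changes.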

Other observations

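Genes next to Ezr, Rdx, Msn and Nf2 on their chromosomes were read off after the members' values were known. The 10 measured neighbours of Ezr on chromosome 17, 5 on each side, had log2 ratios of -1.14 to 0.42 with a median of -0.11, and 1 of them, Synj2, was at least 2-fold lower in LM8. Hoatz near Rdx and Nipsnap1 and Gas2l1 near Nf2 were 2-fold lower too. In none of the 4 neighbourhoods was a gene 2-fold higher. The shares over all measured genes were 8.84% lower and 6.51% higher. The neighbours of Rdx had a median of -0.31, those of Msn 0.04 and those of Nf2 -0.19. The whole chromosome medians were -0.24 for chromosome 17, -0.28 for chromosome 9, -0.01 for the X chromosome and -0.14 for chromosome 11.

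Probe set suffixes were also counted after the fact. Of 923 genes with a measured _x_at probe set and another kind, 2 (0.217%) had probe sets 2-fold apart in opposite directions, and of 4587 genes with no _x_at probe set, 8 (0.174%) did. Ezr, which prompted the count, is among the 2, and without it the share was 1 of 922 (0.108%). The median range between probe sets was 0.55 in those with and 0.52 in those without. Rdx, Msn and Nf2 have no _x_at probe set among those examined.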
